A study of Mus musculus with 5 samples.

Results

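Genes of the actin, myosin, tubulin and adhesion cytoskeleton were taken from a list of genome intervals with RNA recovered on the RNA-binding protein SAMD4 in mouse osteoblasts. They were chosen by gene name, from a set of symbols for actins, actinins, filamins, myosin chains, tropomyosins, tubulins, talins, zyxin, vinculin, vimentin, plectin, IQGAP, PDLIM, cofilin, profilin and transgelin. This rule found 25 of the 673 listed intervals, on 12 chromosomes, under 19 of the 753 listed gene names. Tubb4b is listed under a second name, Tubb2c, so the intervals belong to 18 genes. Of these, 13 genes had 1 interval, 3 genes had 2 and 2 genes had 3. No interval was listed under Actb, Zyx or any name starting with Myl, Cfl or Tagln.

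The RNA came from Samd4PB/PB osteoblasts of strain FVB, taken from mouse calvaria at postnatal days 5 to 7. These cells carry a transposon in both copies of Samd4, which lowers its transcript, and in every group they were immortalized by SV40 and made to express Flag-Samd4 from a lentivirus. The study made 2 libraries from anti-Flag immunoprecipitates (IP), 2 from IgG controls and 1 from the input, and the input was not used here. It is not stated whether the cells were 1 clone or a mixture, and the recovered protein was the introduced one, not SAMD4 at its own level. The list gives 1 number of IP reads and 1 number of IgG reads for each interval, so no spread between libraries could be computed and all intervals quoted cover counting error only.

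Actin filaments and the non-muscle myosins that pull on them let a cell contract and move. Tropomyosins lie along the actin filament and decide which proteins may bind it, while filamins, actinins and plectin tie filaments into networks. Talin and vinculin couple actin to integrins at focal adhesions, where a cell holds on to its matrix. Microtubules of α- and β-tubulin carry transport, and vimentin forms the intermediate filaments of mesenchymal cells such as osteoblasts. SAMD4 is the mammalian counterpart of fly Smaug, whose SAM domain recognizes a hairpin in RNA with CNGG in its loop, N being any base.

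Because many of the intervals lie at the start of a gene, the first 50 transcribed bases of the RefSeq starts (GRCm38.p6) were searched for CNGG on the transcribed strand, overlapping matches included. Of the 18 genes, 16 had a start in the table used, with 18 windows in all, and Plec and Tubb6 had none. All 18 windows held CNGG, against 68.2% of 32851 windows of all genes. Their median GC content was 69.0%, against 56.0% for all windows. The first match is shown for the genes whose most upstream listed interval touched a 5′ UTR and had either a ratio of IP to IgG reads of at least 10 or no IgG reads, with CNGG in capitals:
Actg1 (chr11:120348465-120348488, minus strand): cactccgccgCCGGcttacactgc
Flnc (chr6:29433153-29433170, plus strand): attcCTGGgaggccggcg
Iqgap1 (chr7:80803301-80803324, minus strand): gccgatggcgCGGGgcggggctct
Myh9 (chr15:77842151-77842174, minus strand): cttggaagggCGGGgcagggaggg
Pdlim7 (chr13:55513428-55513446, minus strand): ggaggCGGGgtcagagcgc
Tpm4 (chr8:72135288-72135309, plus strand): agctgtcgCCGGagcccagcag
Tubb4b (chr2:25224687-25224702, minus strand): ggCGGGtcataagagg
Vcl (chr14:20929406-20929429, plus strand): cgagggaagcCCGGactctagtcg

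A hairpin with a stem of at least 4 pairs (G-T pairs allowed) closing a loop of CNGG and 0 to 3 further bases was found in 2 of the 18 windows (11.1%), against 9.01% of all windows. Both are shown, with the CNGG of the loop in capitals, because they are the complete elements found:
Iqgap1 (chr7:80803300-80803314, minus strand, stem of 5 pairs): cggggCGGGgctctg
Actn4 (chr7:28962319-28962330, minus strand, stem of 4 pairs): tgcgCAGGcgcg
A match is only a run of letters in the reference, and it was not tested whether SAMD4 binds there. The windows were not laid over the listed intervals, which are in another genome build. A sequence shown therefore need not lie within the interval of its gene.

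The cytoskeletal intervals held 23 to 294 IP reads and 0 to 79 IgG reads, summing to 2475 IP and 462 IgG reads. Their medians were 75 IP reads, 10 IgG reads and a length of 329 bases, against 74 IP reads, 6 IgG reads and 309 bases over all listed intervals. The median ratio of IP to IgG reads was 7.20 (95% interval of the median 4.74 to 10.9) in the cytoskeletal intervals and 8.33 over all listed intervals. Intervals with no IgG reads entered these medians at a floor of 3 IgG reads, which lowers a larger share of the ratios in the whole list. The median IP share, IP reads over IP plus IgG reads, needs no floor and was 87.8% against 91.3%. Ratios are of reads as listed, and the depth of the libraries is unknown. Only intervals with more IP than IgG reads are listed (673 of 673), and those with few reads are listed only with very few IgG reads among them. Listed intervals of 15 to 29 reads in all had at most 2 IgG reads, those of 30 to 49 at most 6, those of 80 to 119 at most 25 and those of 200 to 399 up to 103. In the last 2 of these ranges the median ratio was 6.58 and 4.39. For this reason the 25 cytoskeletal intervals were also compared with listed intervals whose total reads lay within 10% of their own, called intervals of like depth. Those of the 25 that are given below without a value of this second comparison passed in neither comparison.

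**Figure D1:**
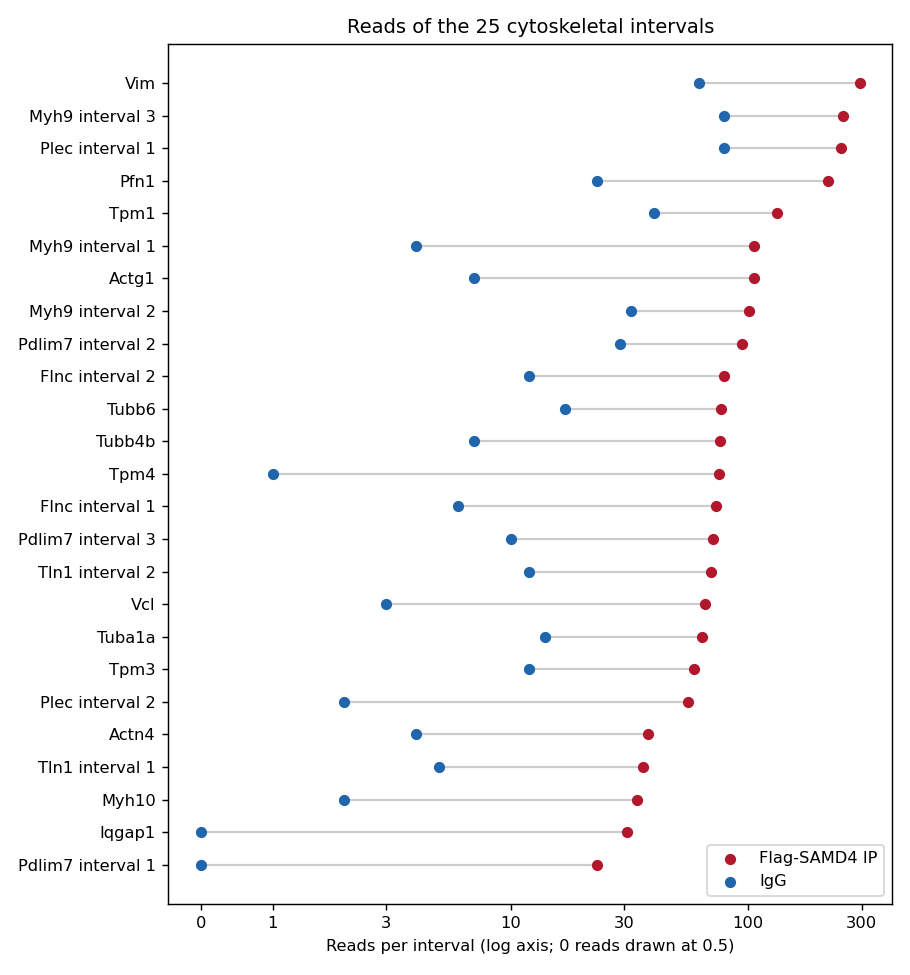
IP reads and IgG reads of each of the 25 cytoskeletal intervals, on a log axis with 0 drawn at 0.5; each line joins the 2 antibodies of 1 interval. Vim has the most IP reads (294), and Iqgap1 and the first Pdlim7 interval have no IgG reads.

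Only 2 cytoskeletal intervals had no IgG reads (8.0%), against 14.4% of all listed intervals. A ratio of at least 10 was reached by 9 (36.0%), against 44.7% of all. Both counts lie below the share in the whole list, and the 95% intervals of the shares, 0.984 to 26.0% and 18.0 to 57.5%, contain it. In an exact two-sided binomial test of the IP reads at the median IP share of all listed intervals (91.3%), with Benjamini-Hochberg adjustment over 673 intervals, 1 cytoskeletal interval was above that share and 8 were below it. Over all listed intervals 11.4% were above and 28.1% below. The other 16 passed in neither direction, which at these read numbers does not show that they lie at the median. Even 31 IP reads with no IgG reads (Iqgap1) gave an unadjusted exact p of 0.108 in this test.

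Among the genes of the thin filament itself, Actg1, which encodes cytoplasmic γ-actin, had 106 IP reads and 7 IgG reads. Its ratio of 15.1 (7.10 to 38.6) did not pass the test against the table median share (adjusted exact p = 0.565). The interval, chr11:120209739-120209795 (build mm9, as for all interval positions), is only 57 bases long and lies wholly in the 5′ UTR, so that it held 186 IP reads per 100 bases, the densest of the cytoskeletal intervals, against a median of 20.0. Its IgG reads were dense too, at 12.3 per 100 bases against a median of 2.63. The interval is the shortest of the cytoskeletal intervals.

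Tpm4, a tropomyosin of non-muscle cells, had 75 IP reads and 1 IgG read. Its ratio of 75.0 (13.1 to 3001) was the highest of the cytoskeletal intervals, the rank 21 of all 673, and the only one above the table median share (adjusted exact p = 0.0359), a call that is lost with Holm's adjustment (adjusted exact p = 1.00). Among 55 intervals of like depth the IgG reads went up to 15 and the ratio down to 4.13, and 4 had no IgG reads. Against the median share of those intervals, 87.5%, Tpm4 was again above (adjusted exact p = 0.00326). With so few IgG reads, 1 read more or less moves the ratio widely. The interval, chr8:74659146-74659560, covers a first exon with 30 bases of 5′ UTR and 132 of coding sequence in the transcript shown, and 208 of intron.

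Tpm1, the tropomyosin with many muscle and non-muscle isoforms, had 132 IP reads but also 40 IgG reads. At a ratio of 3.30 (2.30 to 4.83) it lay below the table median share (adjusted exact p = 4.94e-08) and below that of intervals of like depth (84.8%, adjusted exact p = 0.0187). Tpm3 had 59 IP and 12 IgG reads, at a ratio of 4.92 (2.61 to 10.0) that did not pass the test (adjusted exact p = 0.0724). The 95% interval of Tpm4 does not overlap those of Tpm1 and Tpm3. All 3 intervals cover a transcript start and an adjoining coding exon. That of Tpm3 lies 6935 bases inside the gene, at the start of a shorter isoform.

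The non-muscle myosin heavy chains form the motors of non-muscle myosin II. Myh9, the heavy chain of myosin IIA, had 3 listed intervals with 458 IP reads and 115 IgG reads in all. The first, at the 5′ end of the gene (chr15:77672058-77672587), had 106 IP reads and 4 IgG reads, and its ratio of 26.5 (10.1 to 99.0) did not pass the test against the table median share (adjusted exact p = 0.131). It was above the median share of intervals of like depth, 89.3% (adjusted exact p = 0.0403).

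The second Myh9 interval (chr15:77611527-77611747), which begins 60858 bases from the 5′ end of the gene's listed transcripts, had 101 IP reads and 32 IgG reads. The third (chr15:77597561-77597810) had 251 IP reads and 79 IgG reads. Their ratios, 3.16 (2.10 to 4.86) and 3.18 (2.46 to 4.15), were nearly the same, and both lay below the table median share (adjusted exact p = 5.95e-07 and 1.25e-15). The median share of intervals of like depth was 94.5% for the second, higher than over the whole list, and 78.3% for the third. Against these the second stayed below (adjusted exact p = 1.47e-11) and the third did not pass (adjusted exact p = 0.508). At the median share of intervals with at least 50 reads, 86.9%, the second was also below, by less (adjusted exact p = 0.00269). Myh10, the heavy chain of myosin IIB, had 34 IP reads and 2 IgG reads in 1 interval far from the gene's 5′ end, at 119494 bases. Its ratio was 17.0 (4.36 to 146).

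Of the tubulins, Tubb4b (also listed as Tubb2c), a β-tubulin, had 76 IP and 7 IgG reads, at a ratio of 10.9 (5.02 to 27.9). Tubb6, another β-tubulin, had 77 IP and 17 IgG reads, at a ratio of 4.53 (2.65 to 8.17). Tuba1a, an α-tubulin, had 64 IP and 14 IgG reads, at a ratio of 4.57 (2.54 to 8.83). The IP reads of the 3 genes were close, and the IgG reads set the ratios apart, though their 95% intervals overlap. Tubb6 and Tuba1a were below the table median share (adjusted exact p = 0.0144 and 0.0221), but not below that of intervals of like depth (adjusted exact p = 0.425 and 0.438). Tubulin genes have near-identical copies, and how reads that match several of them were counted is not stated.

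Pfn1, profilin 1, which binds actin monomers and feeds them to growing filaments, had 217 IP reads and 23 IgG reads in 385 bases. Its ratio of 9.43 (6.13 to 15.2) did not pass the test against the table median share (adjusted exact p = 0.718). At its depth the other 20 listed intervals had a median share of 79.6%, and Pfn1 was above it (adjusted exact p = 6.28e-05). Iqgap1, a scaffold that joins actin, Rac1 and Cdc42, had 31 IP reads and no IgG reads, at least 10.3-fold more in the IP with IgG at a floor of 3 reads. None of 44 listed intervals of like depth had over 3 IgG reads and 8 had none, so that every listed interval of this depth had few IgG reads. It did not pass the test against the table median share (adjusted exact p = 0.202).

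The cross-linkers were represented by Flnc, filamin C, and Actn4, α-actinin 4. Flnc had 73 IP reads and 6 IgG reads at its 5′ end (chr6:29383263-29383813) and 79 IP reads and 12 IgG reads over inner exons (chr6:29400482-29400937), ratios of 12.2 (5.33 to 34.2) and 6.58 (3.57 to 13.3). Actn4 had 38 IP and 4 IgG reads, at a ratio of 9.50 (3.42 to 36.6), over 85 bases of 5′ UTR and 165 of coding sequence. None of these 3 intervals passed the test against the table median share. No other filamin or actinin was listed.

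At the adhesions, Vcl, vinculin, had 66 IP and 3 IgG reads, at a ratio of 22.0 (7.21 to 109), in an interval that begins at the very 5′ end of the gene. Tln1, talin 1, had 36 IP reads and 5 IgG reads in its first interval and 70 IP reads and 12 IgG reads in its second, ratios of 7.20 (2.82 to 23.5) and 5.83 (3.14 to 11.8). Of the 332 bases of the first Tln1 interval, 130 are also exon of Creb3 on the opposite strand, so its reads cannot be given to Tln1 alone. All 332 are exon of a transcript listed as mKIAA1027 on the same strand as Tln1. No other cytoskeletal interval held exon of a gene outside the name rule.

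Pdlim7 encodes a PDZ and LIM domain protein, also known as LIM mineralization protein, that binds actin filaments through tropomyosin and promotes bone formation. Its first interval (chr13:55614577-55614786) had 23 IP reads and no IgG reads, at least 7.67-fold more in the IP with IgG at the floor. That was the fewest IP reads of any cytoskeletal interval, and of 31 listed intervals of like depth 15 also had no IgG reads and none had over 2. The second (chr13:55612661-55613945) had 94 IP reads and 29 IgG reads, and the third (chr13:55609733-55610453) had 71 IP reads and 10 IgG reads. The second, at a ratio of 3.24 (2.12 to 5.10), was below the table median share (adjusted exact p = 3.23e-06) and that of intervals of like depth (adjusted exact p = 2.23e-06). The third, at 7.10 (3.64 to 15.4), was not (adjusted exact p = 0.394).

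Of the intermediate filament gene and its linker, Vim, vimentin, had 294 IP reads, the most of the cytoskeletal intervals and rank 76 of 673, and 62 IgG reads. Its ratio of 4.74 (3.60 to 6.34) was below the table median share (adjusted exact p = 8.71e-07), yet above the 77.2% median of 12 intervals of like depth (adjusted exact p = 0.0496). The test took that median as a known share, so the error of a median of 12 intervals is not in its p-value. The direction for Vim therefore rests on what it is compared with. Plec, plectin, which links intermediate filaments to actin and microtubules, had 246 IP reads and 79 IgG reads in a first interval of 1227 bases and 56 IP reads and 2 IgG reads in a second of 155 bases, all coding. The ratios were 3.11 (2.41 to 4.06), the lowest of the cytoskeletal intervals, and 28.0 (7.40 to 237), the second highest. The first was below the table median share (adjusted exact p = 5.09e-16), though not below that of intervals of like depth (adjusted exact p = 0.438).

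**Figure D2:**
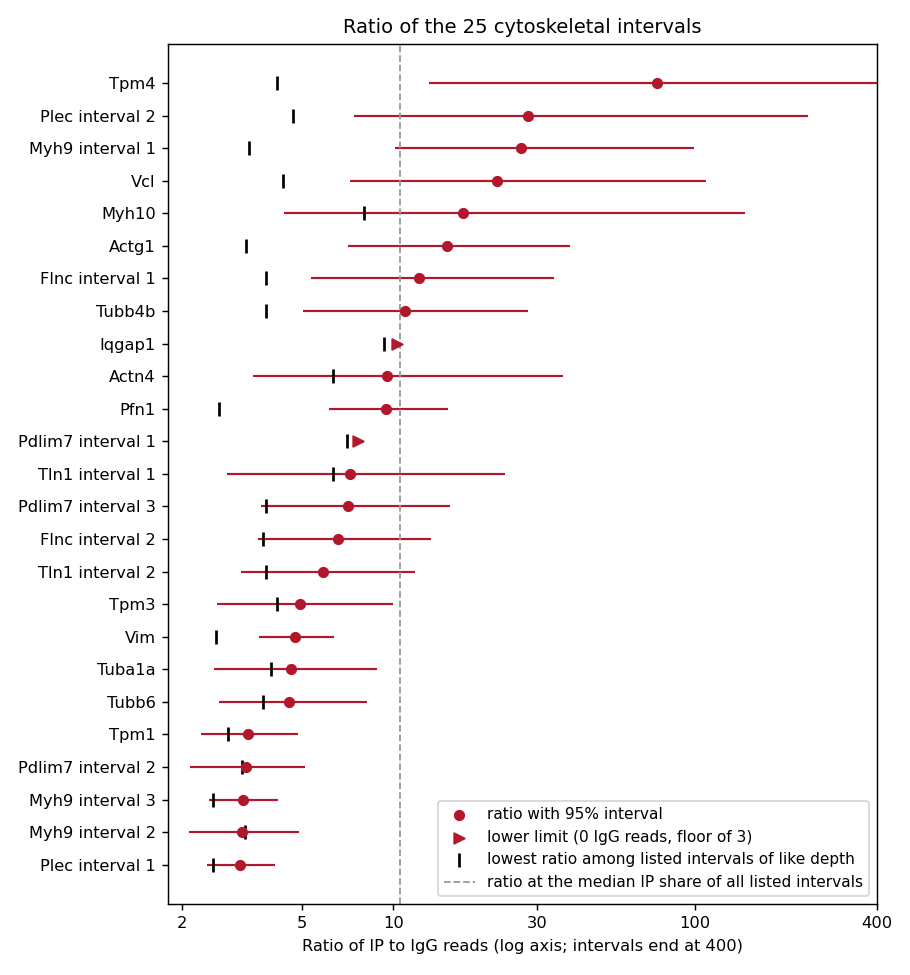
Ratio of IP to IgG reads of the 25 cytoskeletal intervals on a log axis, highest at the top, with 95% Clopper-Pearson intervals, lower limits (triangles) where IgG reads were 0, and black ticks for the lowest ratio among listed intervals of like depth (those with no IgG reads taken at the floor). Tpm4 leads at 75.0, and Plec interval 1, Myh9 intervals 2 and 3, Pdlim7 interval 2 and Tpm1 lie near 3, all with upper bounds left of the dashed line.

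For the 5 genes with several intervals, each later interval was compared with the most upstream one by a two-sided Fisher's exact test of the reads. Depth is shared by both intervals and drops out of this comparison. P-values were adjusted over all 72 such pairs of 54 genes in the list, of which 15.3% were lower and 5.56% higher in the later interval. Of the 7 cytoskeletal pairs, 3 were lower, 1 was higher and 3 passed in neither direction. The ratio was lower in the later interval in 6 of 7 pairs, and in 44 of 72 over the list, as far as the floor for intervals without IgG reads shows.

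In Myh9 the second interval was 8.40-fold and the third 8.34-fold lower than the first (adjusted exact p = 4.89e-05 and 7.7e-06). The second held nearly as many IP reads as the first, 101 against 106, but 32 IgG reads against 4. The third held more of both, 251 IP reads and 79 IgG reads. Listed intervals of the depth of the first had up to 28 IgG reads and ratios down to 3.32, which is above the ratios of both later intervals.

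Plec went the other way. Its second interval had 56 IP reads and 2 IgG reads, against 246 IP and 79 IgG reads in the first, and the ratio of the first over the second was 0.111 (adjusted exact p = 0.000772). Both cover coding exons, beginning 46056 bases from the 5′ end of the gene's listed transcripts for the second and 42880 bases for the first. Listed intervals of the depth of the second had up to 11 IgG reads and ratios down to 4.64, which is above the ratio of the first.

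In Pdlim7 the second interval was at least 2.37-fold lower than the first (adjusted exact p = 0.0437). At the depth of the first no listed interval had over 2 IgG reads, and the call is lost with Holm's adjustment (adjusted exact p = 0.484). The third Pdlim7 interval (adjusted exact p = 0.292), Flnc (adjusted exact p = 0.656) and Tln1 (adjusted exact p = 0.987) gave no call.

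**Figure D3:**
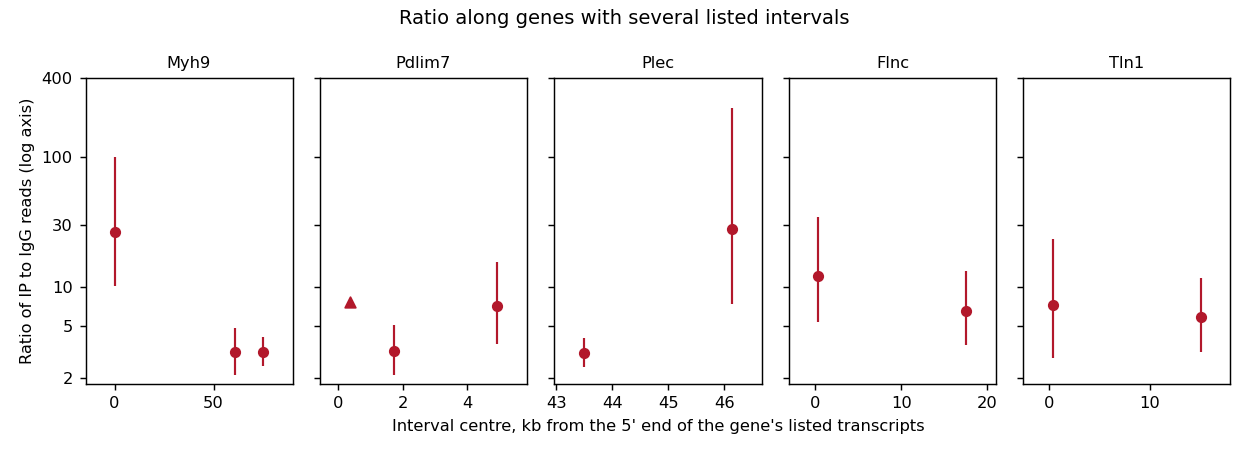
Ratio of IP to IgG reads (log axis) against the distance of the interval's centre from the 5′ end of the gene's listed transcripts in kb, for the 5 genes with several intervals; bars are 95% Clopper-Pearson intervals and the triangle is a lower limit. The first Myh9 interval stands above both later ones, at 26.5 against 3.16 and 3.18, and the later Plec interval above the earlier one, at 28.0 against 3.11.

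The list also names the part of each transcript that an interval covers. A 5′ UTR was touched by 18 of the 25 cytoskeletal intervals (72.0%, 95% interval 50.6 to 87.9%), against 55.3% of all listed intervals. The 95% interval contains the share of the whole list. With RefSeq transcripts only, the count was 14 of the 25, and the share of the whole list was not recomputed. A coding exon was touched by 18, against 72.8% of all, and a 3′ UTR by 0 of 25, against 14.7%. A transcript start lay inside 17 of the 25, a count that was not made over all listed intervals. Among the most upstream intervals of the 18 genes, 16 touched a 5′ UTR, which was likewise not counted over the list. The exceptions were Plec and Myh10, whose listed intervals lie over inner exons. Some of these starts are those of short internal transcripts: the second Myh9 interval counts as 5′ UTR through 122 bases of a transcript that begins within it, and reads of that transcript and of the long mRNA cannot be told apart. For 7 of the 25 intervals the list has transcripts of the gene that span the interval but are not paired with it, so the parts are those of the paired transcripts alone. The third interval of Myh9 and the third of Pdlim7 were paired only with non-coding transcripts, with 60 and 241 exon bases.

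The 18 cytoskeletal intervals that touched a 5′ UTR had a median ratio of 8.55, and 7 of them reached 10. The 7 that did not had a median of 6.58, and 2 of them, Plec interval 2 and Myh10, reached 10. A ratio of 10 was reached by 44.7% of all listed intervals, a share that was not split by 5′ UTR. Over all listed intervals the medians were 10.6 with and 6.33 without a 5′ UTR. All these medians use the floor of 3 IgG reads. The median IP shares, which need no floor, were 90.4% with and 86.8% without a 5′ UTR in the cytoskeletal intervals. Over all listed intervals they were 92.8% and 87.3%. The difference between 8.55 and 10.6, the medians of the intervals that touched a 5′ UTR, was not tested.

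**Figure D4:**
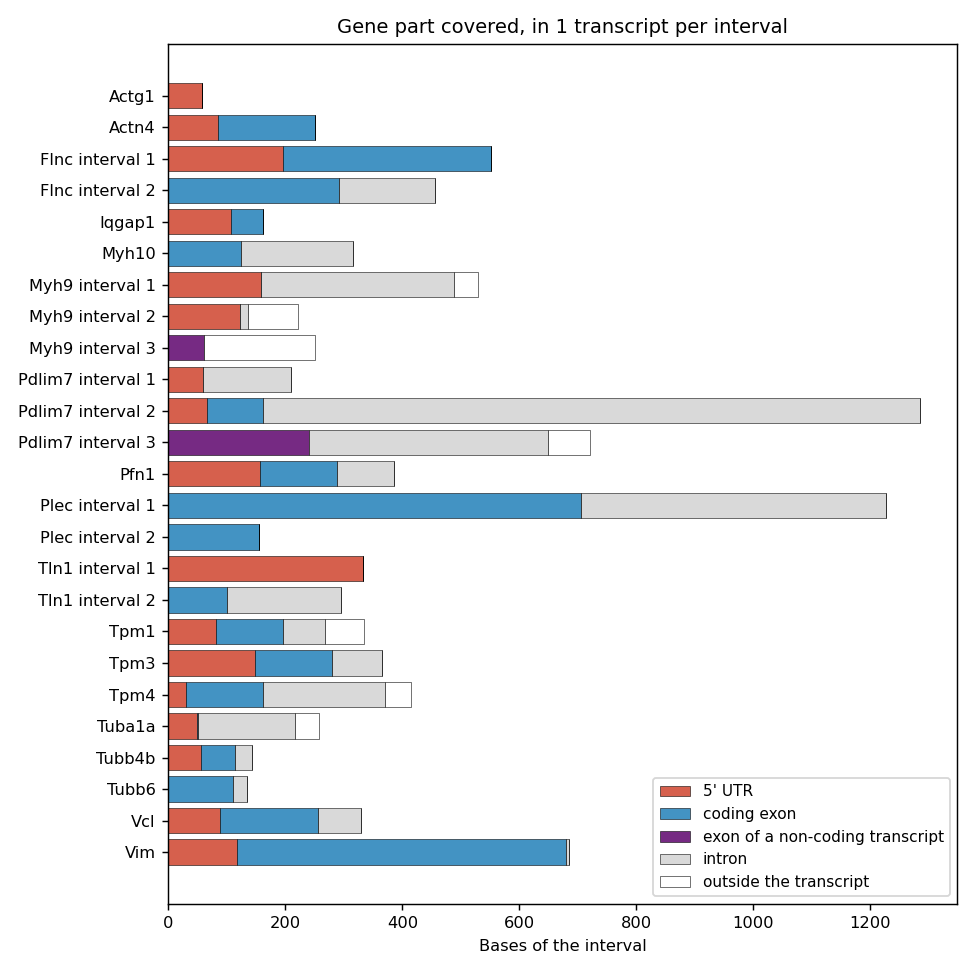
Bases of each of the 25 cytoskeletal intervals (stacked bars, in bases) that fall in 5′ UTR, coding exon, exon of a non-coding transcript, intron or outside the transcript, for 1 transcript per interval. Actg1 and the first Tln1 interval are entirely 5′ UTR and the second Plec interval entirely coding; none reaches a 3′ UTR.

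Against intervals of like depth, 4 cytoskeletal intervals were above (Tpm4, Pfn1, the first of Myh9 and Vim) and 3 below (the second of Myh9, the second of Pdlim7, and Tpm1), where 17.7% of all listed intervals were above and 14.9% below. This comparison was added after the reads had been seen. Calls that held in both comparisons were Tpm4 above, and Tpm1, the second Myh9 and the second Pdlim7 interval below. At the IP share of all listed reads without the 10 deepest intervals, 84.0%, the second Pdlim7 interval lost its call (adjusted exact p = 0.0637). There Tpm4 (adjusted exact p = 0.000263), Tpm1 (adjusted exact p = 0.0336) and the second Myh9 interval (adjusted exact p = 0.0454) kept theirs.

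**Figure D5:**
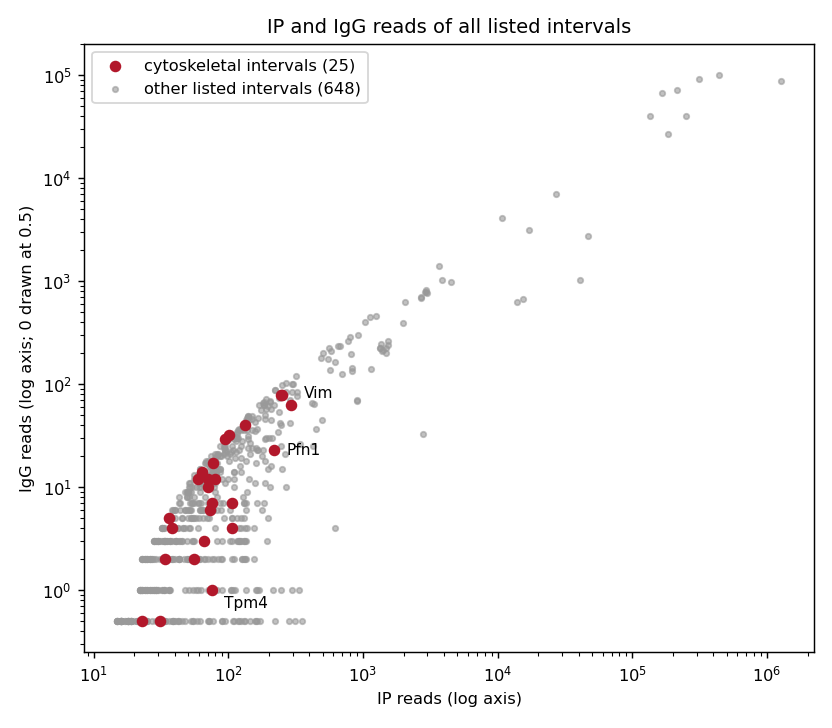
IP reads (horizontal) and IgG reads (vertical) of all 673 listed intervals on log axes, with 0 IgG reads drawn at 0.5; the 25 cytoskeletal intervals are red and the other 648 grey. The upper edge of the cloud, above which no interval is listed, bends down at few IP reads, and Tpm4 (75 IP reads, 1 IgG read) lies well under it.

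Further cytoskeletal genes were taken from 6 lists of 171 genes that the name rule did not cover. Of these, 28 genes had 30 intervals, with a median ratio of 9.16 against 8.33 over all listed intervals. Both medians use the floor of 3 IgG reads. Of the 30 intervals, 14 had a ratio of at least 10 and 2 no IgG reads, against 44.7% and 14.4% of all. Against the table median share 2 of the 30 were above and 7 below, where 11.4% and 28.1% of all listed intervals were. The calls for genes of these lists rest on the table median share alone. Their comparison with intervals of like depth is not given. Actin assembly and cross-linking gave 11 of 68 genes and 1 interval above, that of Fscn1, fascin, which bundles actin filaments, with 197 IP reads and 5 IgG reads (ratio 39.4, 16.6 to 123, adjusted exact p = 0.00234). Coro1b, a coronin that acts on the Arp2/3 complex, was below, with 101 IP reads and 29 IgG reads (ratio 3.48, adjusted exact p = 1.01e-05), as were Ahnak and Arpc1b. Palld, the actin-binding protein palladin, had 89 IP reads and 3 IgG reads and passed in neither direction (ratio 29.7, adjusted exact p = 0.134). Intermediate filaments and lamins gave 2 of 11 genes with 4 intervals. Lmna, which encodes lamins A and C of the nuclear envelope, had 3 intervals, and that with 107 IP reads and 2 IgG reads was above (ratio 53.5, 14.5 to 447, adjusted exact p = 0.0169). The other two, with 124 IP and 14 IgG reads and with 73 IP and 12 IgG reads, passed in neither direction (adjusted exact p = 0.696 and 0.164).

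Focal adhesion genes gave 7 of 37, with 0 above and 3 below. Sdc4, syndecan 4, had 130 IP reads and 36 IgG reads (ratio 3.61, adjusted exact p = 1.51e-06), Bcar1, the p130Cas adaptor, 92 IP reads and 25 IgG reads (ratio 3.68, adjusted exact p = 9.57e-05), and Itgb5, integrin β5, was also below. Ctnnb1, β-catenin, a protein of cell-cell junctions that this list also held, had 24 IP reads and no IgG reads. It passed in neither direction (adjusted exact p = 0.423), and 50 of 88 listed intervals of 15 to 29 reads had no IgG reads. Microtubule binding and motors gave 3 of 25 genes, with no interval above or below.

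The label of the cells was set against markers of several cell types in the same list. Of 9 osteoblast markers only Col1a1, type I collagen, was listed, with 3 intervals of 8498 IP reads and 2125 IgG reads in all. No marker of muscle, smooth muscle, macrophages and osteoclasts, endothelium, adipocytes or chondrocytes was listed. A gene missing from a list of IP intervals may still be expressed, so this is no measure of purity.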

How the data were processed

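Calvarial osteoblasts expressing Flag-SAMD4 were used by the authors for RNA immunoprecipitation, and reads were aligned to mm9 with TopHat2 2.0.9, per the submitters' processing notes. The deposited table pairs 673 intervals with transcripts in 16285 lines. For each interval the authors deposited a count of IP reads, a count of IgG reads, a p-value, a q-value and a fold, and for each line other values such as the number of overlapping bases. The p-value, q-value and fold columns hold the authors' own comparison and were not used. Libraries were grouped by title. The antibody field of the IgG libraries names Flag, unlike their titles. The sources used here do not say how the paired libraries were combined or how intervals were called. Depth per library is unknown. IP reads of all listed intervals sum to 3260616 (93.7% in the 10 deepest) and IgG reads to 567264.

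Positions are printed counted from 1. Ratios have 95% Clopper-Pearson intervals, and 0 IgG reads were set to a floor of 3 reads. The IP share was tested with an exact binomial test and pairs of intervals with Fisher's exact test, Benjamini-Hochberg threshold 0.05 (scipy 1.17.1, Python 3.11.15). Pairs were to be adjusted over the cytoskeletal genes alone and were instead adjusted over all 72 pairs of the table. Tests were checked on simulated data. The genes and lists were chosen with earlier results of these data known. Named were genes without IgG reads, the 10 genes with the most IP reads, those past the test, those with several intervals and the extremes in ratio. Actn4, Myh10, Tpm3 and Vcl were added so that every gene is given. From the lists, up to 4 genes each with the most IP reads were named where reported, with Arpc1b and Ctnnb1 added after their values were seen. Results of some listed genes are not reported here.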

Additional observations from a re-analysis of the deposited data

How the results depend on the processing

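No paired analysis was possible because each interval has 1 number of reads per antibody, with no columns for single libraries, and for the same reason no library could be left out. Of the 25 cytoskeletal intervals, 1 rather than 2 had no IgG reads when at least 25 IP reads were asked for, and 2 rather than 9 reached a ratio of 10 when the lower 95% bound had to (Tpm4 and the first Myh9 interval). Against an IP share of 0.5, all 25 intervals were above, which the listing itself fixes. The split of calls above and below the table median share, 1 and 8, was 2 and 5 at the median share of intervals with at least 50 reads (86.9%), 7 and 4 at the IP share of all listed reads without the 10 deepest intervals (84.0%), 0 and 6 with Holm's adjustment, and 4 and 3 at the median share of intervals of like depth, an alternative added after seeing the data. Vim was the 1 interval whose call turned, above rather than below at like depth (adjusted exact p = 0.0496). Of 152 values recomputed under alternatives, 115 stayed the same, 12 moved, 15 were weaker, 9 were stronger and 1 was reversed. The same means, for a p-value, the same side of the threshold and, for the median ratio, a value within its error. For a count it means a change of at most 1.5 times, and larger changes are given as moved. Weaker means a call lost and stronger a call gained. Holm's adjustment never gives a smaller p-value than that of Benjamini-Hochberg. Intervals and pairs without a call were therefore bound to stay the same under it. The counts of intervals touching a 5′ UTR and of pairs that differed, and the median ratio, moved by less than 1.5 times or their error under every alternative run. Few IgG reads limit the precision: the 95% interval of a ratio was 10.1 to 99.0 with 4 IgG reads (the first Myh9 interval) and 13.1 to 3001 with 1 (Tpm4), and had no upper bound with 0.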
